A study of Mus musculus with 6 samples.

Results

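The genes examined were the ligands, receptors and co-receptors of the vascular endothelial growth factor (VEGF) family. They were the 5 ligands Vegfa, Vegfb, Vegfc, Vegfd and Pgf, the tyrosine kinase receptors Flt1 and Kdr, and the neuropilins Nrp1 and Nrp2. They were chosen by symbol and made up 9 of the 54752 genes in the count table. The table held RNA-seq counts for NIH/3T3 cells, an established line of mouse embryonic fibroblasts, in 3 groups of 2 replicates, all collected after 72 h of culture. The vehicle group received PBS. The TGF-β1+DMSO group received TGF-β1 at 1 ng/ml, a cytokine that drives fibroblasts toward myofibroblasts, together with DMSO, the solvent used for the inhibitor. The TGF-β1+BI6727 group received TGF-β1 at 1 ng/ml and 5 μM BI6727, an inhibitor of the mitotic kinase PLK1. The labels name DMSO for neither of the other groups, so TGF-β1 and DMSO cannot be told apart in the comparison with vehicle, and BI6727 and the lack of a stated solvent cannot be told apart in the comparison with DMSO. All 6 samples came from 1 cell line, and nothing in the labels says that replicates were separate cultures, so p-values measure only the spread between these samples, which may be technical. Because whole cultures were measured, fewer cells expressing a gene and less RNA per cell cannot be told apart.

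VEGF ligands are secreted dimers that act mainly on endothelial cells. VEGF-A and PlGF bind Flt1 (VEGFR1), VEGF-A signals chiefly through Kdr (VEGFR2), VEGF-B binds Flt1, and VEGF-C and VEGF-D act on lymphatic endothelium through Flt4 (VEGFR3). Neuropilins bind VEGF and class III semaphorins and work as co-receptors. Fibroblasts are known mostly as a source of the ligands, and Vegfa transcription is known to respond to hypoxia through HIF factors.

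The comparisons turned on 3 ligands, Vegfa, Vegfc and Vegfd, and their upstream sequence is shown for that reason. Sequences are from RefSeq on the mouse build GRCm38.p6, 5′ to 3′ on the strand of the gene, in lower case, ending at or before the base upstream of the annotated start. Capitals mark GC boxes, matches on either strand to GGGCGG, the core bound by Sp1-type factors. The Vegfa window is chr17:46032378-46032627 on the minus strand, the Vegfc window is chr8:54077282-54077531 on the plus strand, and the Vegfd window is chrX:164373272-164373377 on the plus strand, shortened to 106 bases.
Vegfa: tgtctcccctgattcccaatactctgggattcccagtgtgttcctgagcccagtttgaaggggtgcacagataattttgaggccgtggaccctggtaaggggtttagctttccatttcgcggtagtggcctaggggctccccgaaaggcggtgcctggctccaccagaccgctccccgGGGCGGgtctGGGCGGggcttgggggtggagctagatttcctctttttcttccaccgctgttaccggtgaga
Vegfc: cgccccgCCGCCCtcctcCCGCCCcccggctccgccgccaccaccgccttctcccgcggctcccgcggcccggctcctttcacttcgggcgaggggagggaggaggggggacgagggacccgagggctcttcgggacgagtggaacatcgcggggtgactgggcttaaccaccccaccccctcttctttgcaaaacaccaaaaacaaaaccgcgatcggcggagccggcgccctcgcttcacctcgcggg
Vegfd: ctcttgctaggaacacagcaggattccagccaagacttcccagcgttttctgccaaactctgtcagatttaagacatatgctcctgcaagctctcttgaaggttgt
The first Vegfa start had 2 GC boxes, 72 and 62 bases upstream, and the Vegfc start had 2, at 243 and 232 bases. The full Vegfd window of 250 bases had none. The first starts of the other members also had them, with 5 for Nrp2, 4 for Vegfb, 3 for Flt1, 2 each for Kdr and Pgf, and 1 for Nrp1, so a GC box did not set apart the members that rose. A GC box was present in 32.7% of all 32851 promoter windows of 250 bases. None of these windows held the hypoxia response element core ACGTG (16.6% of all promoters), the AP-1 motif TGANTCA (6.75%) or the SMAD-binding letters CAGACA (17.1%), searched on both strands. At the second annotated Vegfa start, ACGTG lay at 211 and CAGACA at 103 bases upstream. A match is a description of letters and not a measured binding site. Sequence more than 250 bases upstream was not searched, so a motif there would have been missed.

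Libraries held between 18362378 and 24452153 counts, so 3 counts, the floor used here for a gene with no reads, corresponded to 0.123 to 0.163 CPM, the unit that scales a gene's counts to the library total. The TGF-β1+DMSO replicates stood apart from each other. The SD over genes of their log2 difference was 0.366, against 0.155 for vehicle and 0.141 for TGF-β1+BI6727, and the difference between them was lower in longer genes (Spearman rho across 9518 genes, which are not independent, of -0.661). Replicate 2 minus replicate 1 had a median log2 value of -0.373 in the 1763 genes with at least 8000 exon bases, and of 0.358 in the 1618 genes under 2000 bases. Flt1, Nrp2 and Nrp1 have exon lengths of 13504, 11842 and 9785 bases, whereas Vegfa has 4285 and Vegfb 1605. For members whose value or call moved with a TGF-β1+DMSO library, and for those that rose or fell with TGF-β1+DMSO, values without each of these libraries are given beside the result.

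**Figure D1:**
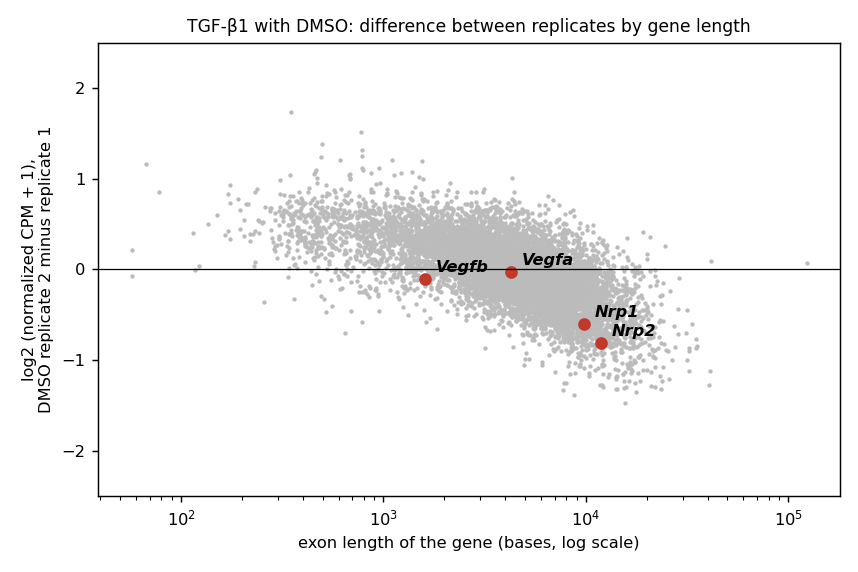
Log2 difference in normalized CPM (plus 1) between TGF-β1+DMSO replicate 2 and replicate 1 on the vertical axis against exon length in bases on a log scale, 1 point for each of 9518 genes, with 4 VEGF family genes in red. Vegfa and Vegfb lay near 0, at -0.03 and -0.11, whereas the long genes Nrp1 and Nrp2 were lower in replicate 2, at -0.60 and -0.81.

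The cell type was checked against marker lists. All 10 fibroblast markers were detected, with a summed level of 8904 to 11593 normalized CPM over the libraries. Vim had the highest level, with group means of 4098 in vehicle, 4986 in TGF-β1+DMSO and 4479 in TGF-β1+BI6727. At an edgeR adjusted p below 0.01 against vehicle, 0 of the 10 were higher. With TGF-β1+DMSO 2 were lower (20%, against 9.82% of all genes called either way), and with TGF-β1+BI6727 3 were lower (30%, against 10.9%). Of 10 endothelial markers, Tie1 and Emcn had no count in any library and 6 stayed under 1 CPM in all. The summed endothelial level was 6.80 to 10.0 CPM in vehicle, 15.0 to 20.6 in TGF-β1+DMSO and 13.5 to 13.7 in TGF-β1+BI6727, and Vwf made up most of it. Among 8 macrophage and leukocyte markers, Adgre1 and Tyrobp were at 0 and the sum was 18.5 to 24.5 CPM. Cd14 made up most of that sum, with group means of 21.4 in vehicle, 18.6 in TGF-β1+DMSO and 17.9 in TGF-β1+BI6727. Of 6 epithelial markers, Krt5 and Esrp1 were at 0, and the sums were 0.363 to 0.501 CPM in vehicle, 1.93 to 2.27 in TGF-β1+DMSO and 0.828 to 1.67 in TGF-β1+BI6727.

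Levels were compared between genes as RPKM, normalized CPM per kilobase of exon length. In vehicle, Vegfb stood highest at 53.9 ± 1.29 RPKM (SD, n = 2, as for each value here). Vegfa at 23.3 ± 1.02, Nrp2 at 22.6 ± 0.206 and Vegfd at 21.7 ± 1.49 RPKM followed, and the replicate ranges of these neighbours overlapped. Nrp1 (3.75 ± 0.658) and Vegfc (0.552 ± 0.149) were lower, Pgf and Flt1 were near 0.26 RPKM and overlapped, and Kdr was at 0. With TGF-β1+DMSO, Vegfa was the highest member at 141 ± 2.09 RPKM, above Vegfb at 46.8 ± 2.58 and Nrp2 at 16.8 ± 6.54. Vegfd (5.69 ± 1.88) and Vegfc (4.46 ± 0.562) then overlapped, above Nrp1 (2.22 ± 0.677), and Flt1 (0.409 ± 0.160) overlapped Pgf (0.357 ± 0.0815). With TGF-β1+BI6727 the order was Vegfa (138 ± 3.61), Vegfb (35.7 ± 0.312), Nrp2 (17.2 ± 0.499), Vegfc (4.39 ± 0.324), Vegfd (3.95 ± 0.0312) and Nrp1 (2.29 ± 0.0266), with Pgf (0.329 ± 0.140) and Flt1 (0.324 ± 0.0795) overlapping at the bottom of the genes with counts.

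**Figure D2:**
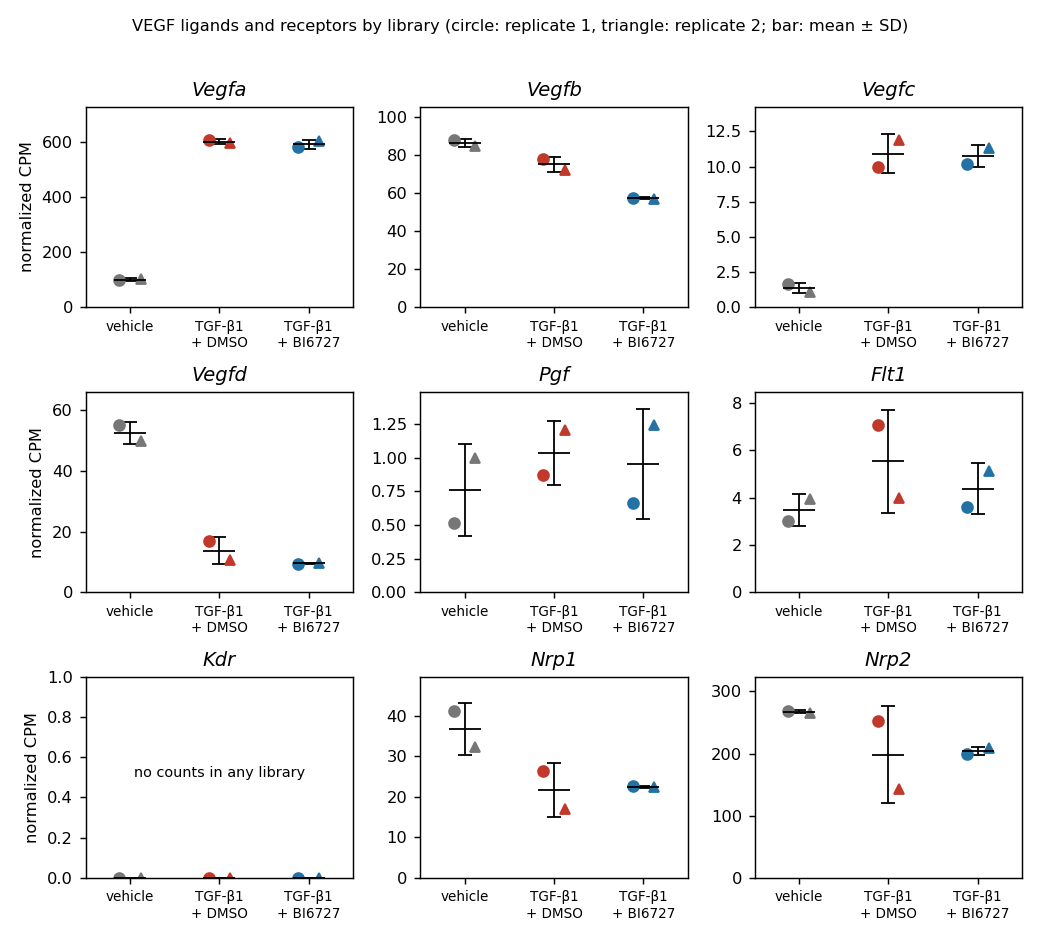
Normalized CPM (vertical axis, from 0, a separate scale for each gene) of the 9 VEGF family genes in each library, with circles for replicate 1, triangles for replicate 2 and black bars for the mean ± SD of 2 replicates. Vegfa and Vegfc were high and Vegfd was low in all 4 TGF-β1 libraries, and Kdr had no counts.

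Tests were made with the quasi-likelihood method of edgeR, p-values were adjusted by Benjamini-Hochberg over every gene that passed the filter, and "rose" or "fell" is used for an adjusted p below 0.01. The study's filter, at least 10 CPM in more than 3 samples, kept 9518 genes and 4 members, namely Vegfa, Vegfb, Nrp1 and Nrp2. Vegfc and Vegfd reached 10 CPM in only 3 libraries each, and Pgf, Flt1 and Kdr in none. The edgeR function filterByExpr kept 14604 genes and 8 members, all but Kdr, and gave the tests for Vegfc, Vegfd, Pgf and Flt1. In the TGF-β1+DMSO group against vehicle, 1 of the 4 members rose and 0 fell, against 4.92% and 4.91% of all tested genes, with 2 of the 4 at an unadjusted p under 0.05 (37.8% of genes). DESeq2 called Nrp1 lower as well, and 18.7% of genes in either direction. With filterByExpr, 2 of 8 rose and 1 fell, against 4.63% and 5.1% of genes (9.73% in all). The groups did not overlap for each of the 4 members, as for 62.9% of genes, and for 7 of the 8, as for 60.9%.

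Vegfa, which encodes the main angiogenic factor of the family, lies at chr17:46016993-46032369 on the minus strand (mm10) and was counted over its exons, as were all genes. Its normalized CPM was 96.9 and 103 in the vehicle replicates, 609 and 596 with TGF-β1+DMSO, and 581 and 603 with TGF-β1+BI6727. Every TGF-β1 library was thus above both vehicle libraries, and the TGF-β1 groups overlapped each other. Vegfa rose 6.02-fold with TGF-β1+DMSO, with a log2 fold change of 2.59 (SE 0.10, 95% interval 2.36 to 2.82, edgeR adjusted p = 2.71e-05), which ranked 39 from the highest of 9518 genes. It was 2.57 without DMSO replicate 1 and 2.62 without replicate 2. Against vehicle, the TGF-β1+BI6727 group was higher by 2.57 on the log2 scale (SE 0.10, edgeR adjusted p = 2.15e-05). BI6727 against DMSO gave -0.02 (95% interval -0.24 to 0.20, edgeR adjusted p = 0.965).

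Vegfb, whose product binds Flt1, lies at chr19:6982473-6987651 on the minus strand. Its normalized CPM was 88.0 and 85.1 in vehicle, 78.1 and 72.2 with TGF-β1+DMSO, and 57.6 and 56.9 with TGF-β1+BI6727. The 3 groups did not overlap and stepped down in that order. The TGF-β1+DMSO group differed from vehicle by -0.20 on the log2 scale (SE 0.10, edgeR adjusted p = 0.169). With TGF-β1+BI6727, Vegfb fell 1.51-fold against vehicle (log2 fold change -0.60, SE 0.10, edgeR adjusted p = 0.00518). That call was lost with the replicate number as a block (edgeR adjusted p = 0.0145) and without any 1 of the 4 libraries compared (0.0553 to 0.0736).

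BI6727 against DMSO gave a Vegfb log2 difference of -0.39 (SE 0.10, 95% interval -0.62 to -0.16), with an unadjusted p of 0.00470 and an adjusted p of 0.580 in edgeR. In that comparison 34.1% of the 9518 genes had groups that did not overlap, and 0 genes passed an adjusted p of 0.01, with 636 (6.68%) at an unadjusted p under 0.05 and 25 passing in DESeq2. Leaving out a TGF-β1+DMSO library moved the Vegfb adjusted p to 0.00898 without replicate 1 and 0.00362 without replicate 2. The background moved too, since 17.5% and 2.43% of genes then passed.

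Vegfc, a lymphangiogenic ligand, lies at chr8:54077606-54187096 on the plus strand. Its counts were 31 and 24 in vehicle, 206 and 247 with TGF-β1+DMSO, and 183 and 273 with TGF-β1+BI6727, which were 1.61 and 1.09, 9.95 and 11.9, and 10.2 and 11.3 normalized CPM. The vehicle libraries were lowest and did not overlap the others. Vegfc rose 8.16-fold with TGF-β1+DMSO (log2 fold change 3.03, SE 0.25, 95% interval 2.46 to 3.60, edgeR with filterByExpr, adjusted p = 0.000105). It was 3.14 without DMSO replicate 1 (adjusted p = 4.34e-08, where 34.4% of genes passed) and 2.92 without replicate 2 (adjusted p = 1.96e-07, where 20% passed). With TGF-β1+BI6727 it rose by 3.02 against vehicle (SE 0.25, edgeR adjusted p = 0.000102). BI6727 against DMSO gave -0.01 (95% interval -0.48 to 0.45, edgeR adjusted p = 0.993).

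Vegfd, which like Vegfc encodes a Flt4 ligand, lies at chrX:164373378-164402650 on the plus strand and moved the opposite way. Its normalized CPM was 54.9 and 49.8 in vehicle, 16.9 and 10.5 with TGF-β1+DMSO, and 9.46 and 9.56 with TGF-β1+BI6727. The vehicle libraries were highest, and the TGF-β1 groups did not overlap, although TGF-β1+DMSO replicate 2 lay close to the BI6727 libraries. Vegfd fell 3.79-fold with TGF-β1+DMSO (log2 fold change -1.92, SE 0.21, edgeR with filterByExpr, adjusted p = 0.000504), and the adjusted p was 0.0144 without vehicle replicate 1. The log2 fold change was -2.32 without DMSO replicate 1 and -1.60 without replicate 2. With TGF-β1+BI6727 it fell 5.43-fold against vehicle (log2 fold change -2.44, SE 0.22, edgeR adjusted p = 0.000156). BI6727 against DMSO gave -0.52 (95% interval -1.02 to -0.01, edgeR adjusted p = 0.688), with groups not overlapping in 35.1% of the 14604 genes. The value turned on the DMSO replicates, at -0.12 without replicate 1 (adjusted p = 0.647, 9.38% of genes passing) and -0.84 without replicate 2 (adjusted p = 0.00342, 1.32% passing).

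The ratio of Vegfd to Vegfc in RPKM was 34.7 and 46.4 in the vehicle replicates, 1.73 and 0.898 with TGF-β1+DMSO, and 0.945 and 0.861 with TGF-β1+BI6727. The transcripts of the lymphangiogenic ligands thus went from a large excess of Vegfd to near parity.

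Pgf, which encodes placental growth factor and lies at chr12:85166635-85177790 on the minus strand, had few reads. Its counts were 10 and 22 in vehicle, 18 and 25 with TGF-β1+DMSO, and 12 and 30 with TGF-β1+BI6727, and all groups overlapped. The log2 fold change with TGF-β1+DMSO was 0.44 (95% interval -0.80 to 1.67, edgeR with filterByExpr, adjusted p = 0.601), an interval too wide at this depth to show a change of this size.

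The ligands were also summed per length. Vegfa made up 23.4 ± 1.44% of the summed ligand RPKM in vehicle, 71.0 ± 1.06% with TGF-β1+DMSO and 75.7 ± 0.404% with TGF-β1+BI6727 (SD, n = 2). Vegfb went from 54.0 ± 0.326% to 23.7 ± 0.598% and 19.6 ± 0.577%, and Vegfd from 21.8 ± 1.10% to 2.86 ± 0.865% and 2.16 ± 0.0278%. Vegfc was 0.551 ± 0.140%, 2.26 ± 0.351% and 2.40 ± 0.128%, so its rise left it a small share. The summed ligand level itself was 99.8 ± 1.78 RPKM in vehicle, 198 ± 5.91 with TGF-β1+DMSO and 183 ± 3.79 with TGF-β1+BI6727. No replicate range of these group sums overlapped that of vehicle, and no test was made on the sums or shares.

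**Figure D3:**
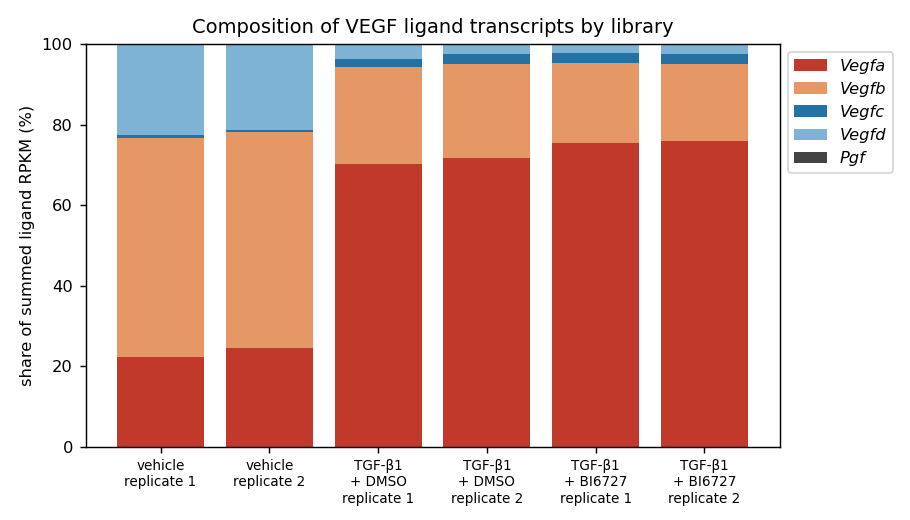
Share in percent of the summed RPKM of the 5 VEGF ligands (vertical axis) in each of the 6 libraries, stacked by gene. Vegfb held the largest share in both vehicle libraries, at a mean of 54.0%, and Vegfa in all 4 TGF-β1 libraries, at means of 71.0% and 75.7%.

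The kinase receptors were barely expressed. Kdr, the principal signalling receptor for VEGF-A on endothelium (chr5:75932827-75978458, minus strand), had 0 counts in every library. Over the 127147422 counts of all libraries together, a count of 0 allows a level of up to 0.0236 CPM, by counting error only. Flt4, the VEGF-C and VEGF-D receptor and no member of the set, also had 0 counts in all 6 libraries.

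Flt1, the other VEGF-A receptor (chr5:147561604-147726011, minus strand), had 58 and 87 counts in vehicle, 146 and 83 with TGF-β1+DMSO, and 65 and 124 with TGF-β1+BI6727. These were 3.01 and 3.96, 7.05 and 4.00, and 3.62 and 5.13 normalized CPM. TGF-β1+DMSO replicate 1 was the highest library, replicate 2 lay just above the vehicle range, and TGF-β1+BI6727 overlapped vehicle. The log2 fold change with TGF-β1+DMSO was 0.67 (SE 0.34, 95% interval -0.10 to 1.44, edgeR with filterByExpr, adjusted p = 0.194), and 0.35 with TGF-β1+BI6727 against vehicle (adjusted p = 0.509). With TGF-β1+DMSO it was 0.19 without DMSO replicate 1 and 1.04 without replicate 2. The summed endothelial markers given above were higher than vehicle without overlap in both TGF-β1 groups, at a level of at most 20.6 CPM. Groups did not overlap in 60.9% of the 14604 genes with TGF-β1+DMSO, and in 71.3% with TGF-β1+BI6727. Of the 5 endothelial markers tested with filterByExpr, 0 passed in either comparison with vehicle. The lowest edgeR adjusted p was 0.0254 with TGF-β1+DMSO and 0.0633 with TGF-β1+BI6727. Flt1 did not pass in either comparison with vehicle, so no difference between Flt1 and these markers is shown. The part of these markers in the Flt1 values was not tested.

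The neuropilins were the receptor genes with substantial counts. Nrp2 (chr1:62703285-62818695, plus strand), best known as a co-receptor for VEGF-C and semaphorin 3F, had a normalized CPM of 269 and 266 in vehicle, 253 and 144 with TGF-β1+DMSO, and 200 and 208 with TGF-β1+BI6727. All 4 TGF-β1 libraries were below vehicle, but the DMSO replicates differed from each other by more than any pair of group means did. The log2 fold change with TGF-β1+DMSO was -0.43 (SE 0.23, edgeR adjusted p = 0.210). It was -0.90 without DMSO replicate 1 (adjusted p = 1.40e-08, where 47% of genes passed) and -0.07 without replicate 2 (adjusted p = 0.508, where 27.1% passed). With TGF-β1+BI6727 against vehicle it was -0.39 (SE 0.23, edgeR adjusted p = 0.259), and with only these 2 groups in the fit the value was again -0.39 (adjusted p = 2.56e-05, where 41.6% of genes passed).

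BI6727 against DMSO gave an Nrp2 log2 difference of 0.04 (95% interval -0.50 to 0.58, edgeR adjusted p = 0.973). This value had no stable direction, since it was 0.51 without DMSO replicate 1 and -0.32 without replicate 2.

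Nrp1 (chr8:128358604-128503363, plus strand), a co-receptor for VEGF-A and semaphorin 3A, had a normalized CPM of 41.2 and 32.1 in vehicle, 26.4 and 17.0 with TGF-β1+DMSO, and 22.6 and 22.3 with TGF-β1+BI6727. Vehicle was highest, with no overlap, and the DMSO replicates again spanned both BI6727 libraries. The log2 fold change with TGF-β1+DMSO was -0.76 (SE 0.22, edgeR adjusted p = 0.0480). It was -1.11 without DMSO replicate 1 and -0.46 without replicate 2. DESeq2 on all libraries gave Nrp1 an adjusted p of 0.00892 with TGF-β1+DMSO. With TGF-β1+BI6727 against vehicle it was -0.71 (SE 0.22, edgeR adjusted p = 0.0572), and with only those groups in the fit it stayed -0.71 (adjusted p = 7.71e-05). BI6727 against DMSO gave 0.05 (95% interval -0.48 to 0.58, edgeR adjusted p = 0.972). A miRNA gene, Mir1903, overlaps 0.818% of the exon length of Nrp1, and no other member shares exon bases with another gene.

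**Figure D4:**
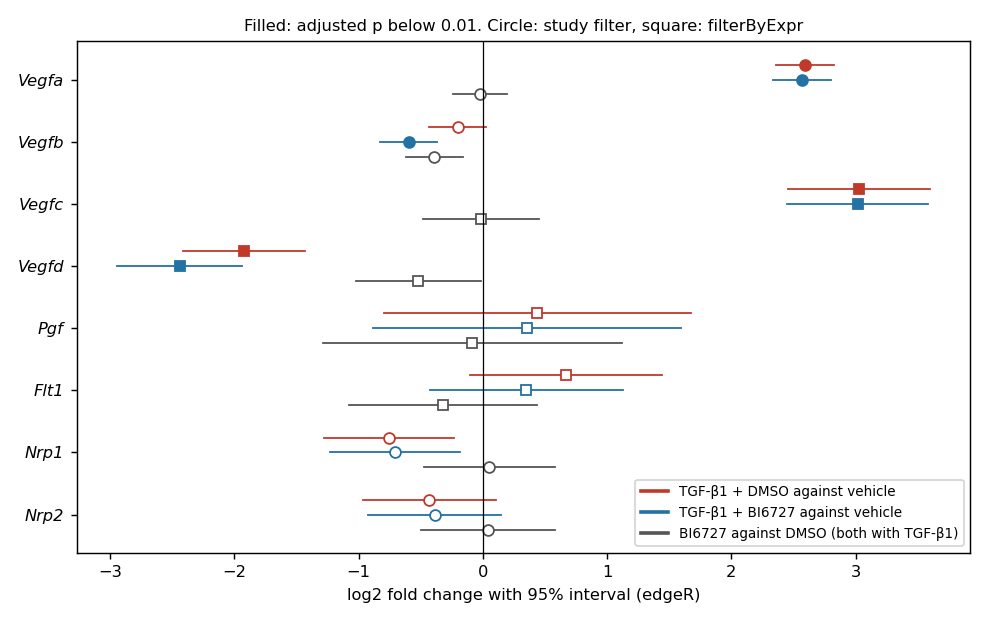
Log2 fold change (horizontal axis) with its 95% interval for the 8 members with a test, in 3 comparisons, from edgeR. Filled symbols mark an adjusted p below 0.01, squares mark genes tested with filterByExpr. Both comparisons with vehicle place Vegfa and Vegfc above 2 and Vegfd at or below -1.92, and no interval for BI6727 against DMSO goes with a filled symbol.

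In the TGF-β1+BI6727 group against vehicle, 1 of 4 members rose and 1 fell (4.94% and 5.99% of all genes), and with filterByExpr 2 of 8 rose and 2 fell (4.58% and 5.9%, 10.5% in all). The groups did not overlap for all 4 members (76.8% of genes) and for 6 of the 8 (71.3%). For BI6727 against DMSO edgeR called 0 of 4 members (0% of genes), with 1 of 4 at an unadjusted p under 0.05, and DESeq2 called 0 (0.263% of genes). With filterByExpr it called 0 of 8 (0% of genes), with Vegfb and Vegfd at an unadjusted p under 0.05 (7.13%).

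The genes with the pattern most like that of Vegfa, by Pearson correlation of log2 normalized CPM over the 6 libraries among 9517 genes, were Acsbg1, Col7a1 and Epha2. Acsbg1 had group means of 3.38, 37.1 and 38.2 normalized CPM in vehicle, TGF-β1+DMSO and TGF-β1+BI6727, Col7a1 had 1.79, 49.6 and 54.5, and Epha2 had 40.2, 77.4 and 75.4. Each had r above 0.99, a value that rests on the gap between 2 vehicle and 4 TGF-β1 libraries. The genes most like Nrp2 were Cic, with means of 202, 160 and 162, Ccdc93, with 68.2, 57.1 and 59.3, and Numa1, with 118, 89.6 and 95.03. This likeness rests in part on the gap between the TGF-β1+DMSO replicates, since all 4 are long genes that were lower in replicate 2, by log2 differences of -0.81 for Nrp2, -0.65 for Cic (10294 bases), -0.44 for Ccdc93 (11445 bases) and -0.63 for Numa1 (7919 bases).

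Other genes of the pathway were taken as 5 lists of 98 genes, of which 72 were tested. With TGF-β1+DMSO 8 rose and 7 fell, and with TGF-β1+BI6727 against vehicle 10 rose and 9 fell, that is 20.8% and 26.4% against 9.82% and 10.9% of all genes. The lists were chosen with earlier results of these data known. The shares here and for each list below therefore describe the lists and do not test enrichment. For BI6727 against DMSO edgeR called 0 of the 72, with 11 at an unadjusted p under 0.05, against 6.68% of all genes, and DESeq2 called 1, against 0.263% of all genes. Leaving out a library changed the TGF-β1+DMSO counts, which reached 24 higher without DMSO replicate 2, where 27.1% of all genes passed, and 24 lower without DMSO replicate 1, where 47% passed. They dropped to 4 higher and 1 lower without vehicle replicate 1 or 2. The 15 genes that passed with all libraries kept their direction without either DMSO library. This was not a demanding check, since the genes were picked by a fit that held these libraries.

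In the list of semaphorins and plexins, the other ligands and signalling partners of neuropilins, 1 of 8 tested genes (12.5%, against 9.82% of all genes) rose with TGF-β1+DMSO and none fell, with a median log2 fold change of -0.14 against -0.0045 over all genes. The gene that rose was Plxna4, a signalling partner of neuropilin, by 1.99 (SE 0.36, edgeR adjusted p = 0.00806). Its normalized CPM was 11.2 and 11.0 in vehicle, 61.5 and 26.5 with TGF-β1+DMSO, and 50.2 and 50.3 with TGF-β1+BI6727. The DMSO replicates were thus far apart. The log2 fold change was 1.25 without DMSO replicate 1 and 2.48 without replicate 2. Gipc1, a neuropilin-binding adaptor and the gene of the list with the highest RPKM, had a log2 fold change of 0.46 (edgeR adjusted p = 0.0224).

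Of 39 tested genes of VEGF signal transduction 3 rose and 2 fell with TGF-β1+DMSO, 12.8% of the list against 9.82% of all genes, and the list median was 0.07. Sphk1, which makes sphingosine-1-phosphate, rose by 2.13 on the log2 scale, from 17.4 and 13.9 normalized CPM in vehicle to 61.2 and 75.2 (SE 0.16, edgeR adjusted p = 0.000226). Ptgs2, the inducible cyclooxygenase, rose by 1.77, from 125 and 126 to 426 and 432 normalized CPM (SE 0.09, edgeR adjusted p = 4.55e-05). Map2k1, the MAP kinase kinase MEK1, rose by 1.03 (edgeR adjusted p = 0.000344). These kinases and enzymes act in many pathways besides that of VEGF. Pik3r1, the regulatory subunit of phosphoinositide 3-kinase, fell by 1.75, from 134 and 134 to 46.9 and 33.0 normalized CPM (SE 0.16, edgeR adjusted p = 0.000502), and Ppp3ca, a calcineurin catalytic subunit, fell by 1.03 (adjusted p = 0.000823). Akt1, with the highest RPKM of the list, had a log2 fold change of 0.14 (edgeR adjusted p = 0.294).

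None of 7 tested HIF pathway genes passed the test with TGF-β1+DMSO in edgeR, with 4 at an unadjusted p under 0.05 (37.8% of all genes), and the list median was -0.05. With filterByExpr, 1 of 8 rose and 1 fell, 25% against 9.73% of genes. The gene that rose was Egln3, a HIF prolyl hydroxylase named after its values were seen, from 6.85 and 6.28 to 16.7 and 14.2 normalized CPM (log2 fold change 1.24, edgeR adjusted p = 0.00208), with 11.1 and 9.69 in TGF-β1+BI6727. Arnt2, a partner subunit of HIF factors, was at 26.7 and 26.8 normalized CPM in vehicle, 15.1 and 9.24 with TGF-β1+DMSO, and 10.4 and 11.3 with TGF-β1+BI6727. With TGF-β1+BI6727 against vehicle it fell 2.46-fold (log2 fold change -1.30, edgeR adjusted p = 0.00672), and its value with TGF-β1+DMSO was -1.14 (adjusted p = 0.0117), or -1.13 with filterByExpr (adjusted p = 0.00875), where it was the gene that fell. Hif1a, the oxygen-regulated subunit, named after its values were seen, was at 215 and 173 normalized CPM in vehicle and 136 and 116 with TGF-β1+DMSO, a log2 fold change of -0.62 (edgeR adjusted p = 0.0167). Egln2, a HIF prolyl hydroxylase with the highest RPKM of the list, had -0.05 (adjusted p = 0.807).

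Of 11 tested genes for proteins that bind, release or oppose VEGF, 3 rose and 3 fell with TGF-β1+DMSO, 54.5% of the list against 9.82% of all genes, and the median was -0.40. Ccn2, a matricellular protein that binds VEGF-A and a well known TGF-β target, rose 12.6-fold, from 30.9 and 33.2 to 385 and 419 normalized CPM (log2 fold change 3.65, SE 0.11, edgeR adjusted p = 2.18e-05). With TGF-β1+BI6727 it was at 255 and 239 normalized CPM, below both DMSO libraries, a log2 difference of -0.70 from DMSO (edgeR adjusted p = 0.194). The thrombospondins, secreted inhibitors of angiogenesis, went in opposite directions. Thbs1 rose by 1.99 (SE 0.24, edgeR adjusted p = 0.00143), from 92.1 and 66.1 to 385 and 244 normalized CPM, and was at 1.62 without DMSO replicate 1 and 2.30 without replicate 2. Thbs2 fell by 1.99 (SE 0.21, edgeR adjusted p = 0.000823), from 1483 and 1275 to 423 and 272 normalized CPM, and was at -2.34 and -1.69 on the log2 scale without replicates 1 and 2.

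Among the matrix proteins of that list, Dcn, the proteoglycan decorin, fell by 1.97 (edgeR adjusted p = 0.000374) and Sparc, which binds VEGF-A, fell by 0.86 (adjusted p = 0.00480). Vash2, a vasohibin named here as the remaining gene that passed, rose by 0.73 (adjusted p = 0.00628). Mmp2, a matrix metalloproteinase with the highest RPKM of the list, had -0.53 (adjusted p = 0.0727).

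Of 7 tested genes for other angiogenic ligands and receptors, 1 rose and 2 fell with TGF-β1+DMSO, 42.9% of the list against 9.82% of all genes, with a median of 0.16. Fgf2, basic fibroblast growth factor, rose by 2.21, from 19.8 and 25.4 to 112 and 97.1 normalized CPM (SE 0.15, edgeR adjusted p = 0.000136). Hgf, hepatocyte growth factor, fell by 1.41 (SE 0.17, edgeR adjusted p = 0.00158), from 99.5 and 79.0 to 38.1 and 29.3 normalized CPM, and was at -1.61 and -1.21 on the log2 scale without DMSO replicates 1 and 2. Apln, the apelin ligand, fell by 1.32 (SE 0.16, edgeR adjusted p = 0.00158), from 42.0 and 49.9 to 19.7 and 17.1 normalized CPM. It was at 10.3 and 12.2 with TGF-β1+BI6727, a difference of -0.71 from DMSO that did not pass (adjusted p = 0.569). Angptl2, an angiopoietin-like secreted protein with the highest RPKM of the list, had 0.36 (adjusted p = 0.0715).

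**Figure D5:**
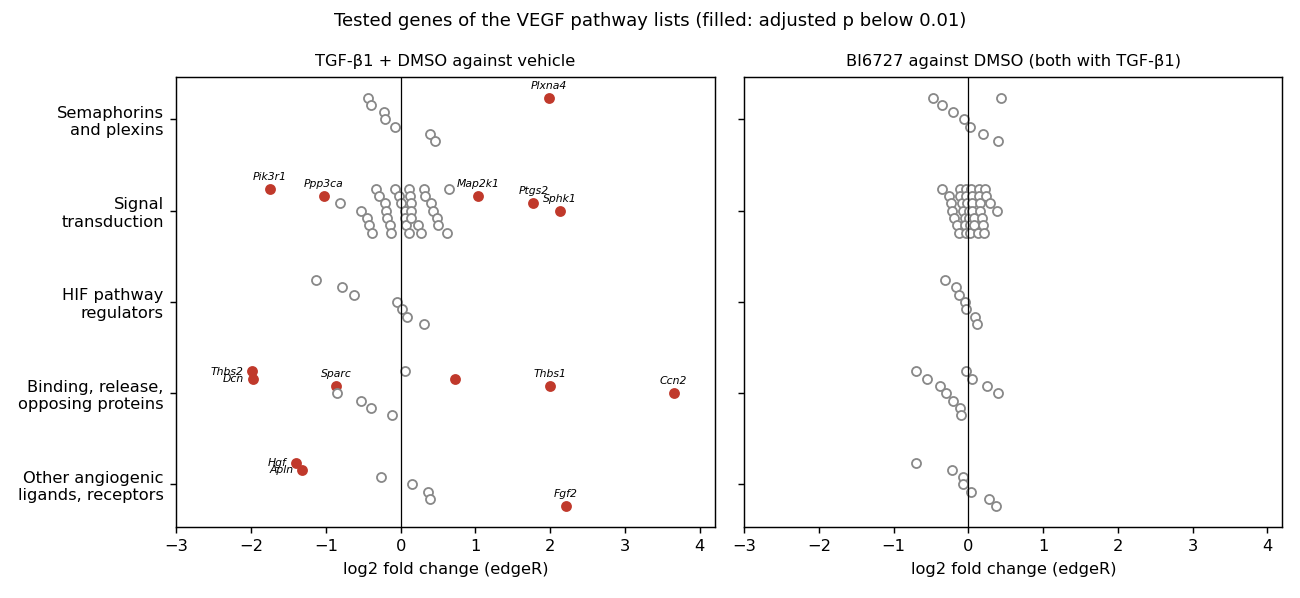
Log2 fold change from edgeR (horizontal axis) of each tested gene in the 5 pathway lists, on the left for TGF-β1+DMSO against vehicle and on the right for BI6727 against DMSO, with filled points for an adjusted p below 0.01. On the left 15 of 72 genes are filled, from Ccn2 at 3.65 to Thbs2 at -1.99, and on the right none is filled.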

How the data were processed

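RNA-seq was performed on 6 NIH/3T3 samples. The authors mapped reads to the mm10 genome with Subread 1.6.4 (per the submitters' processing notes), counted them on Gencode genes with featureCounts and deposited raw counts with no normalization. The setting for strand is not given in the sources used here. Groups and replicate numbers were taken from the sample labels. Of 54752 gene identifiers, 54723 had a symbol.

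All 6 libraries entered 1 quasi-likelihood fit of the counts (edgeR 4.0.16 under R 4.3.3, TMM, 3 residual degrees of freedom), after the study's filter of 10 CPM in more than 3 samples, with DESeq2 1.42.0 as an alternative. Normalized CPM used TMM library sizes, and RPKM the exon lengths in the table. Genes named outside the family were those past an adjusted p of 0.01 with a fold above 2 in any comparison, at most 6 a list, the gene of highest level in each list, and 3 genes correlated best with Vegfa and 3 with Nrp2. Members and lists were chosen with earlier results of these data known. Other filters, normalizations, a length correction (lowess, span 0.3), a replicate block, other thresholds and each library left out were tried. The test was checked on simulated data. Intervals and floors cover counting error or replicate spread only.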

Additional observations from a re-analysis of the deposited data

How the results depend on the processing

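The levels of Vegfa and Vegfc against vehicle passed the test in every setting in which they were tested. Their log2 fold changes were 2.52 to 2.64 for Vegfa and 2.76 to 3.32 for Vegfc. The order of the 9 members by RPKM was the same under both other scalings. Each scaling divides all genes of a library by 1 factor, so that order could hardly have changed. Members called with TGF-β1+DMSO were 2 higher and 1 lower with filterByExpr or a minimum of 10 counts in total, and 1 was lower with DESeq2, with length offsets plus the replicate block, or at an adjusted p of 0.05. With TGF-β1+BI6727 against vehicle, 2 were higher and 2 lower with either of those filters, 3 lower with only the 2 groups in the fit, 2 lower with length offsets plus the replicate block, 0 lower with the replicate block alone and 0 lower with a fold above 2. For the pathway lists with TGF-β1+DMSO, DESeq2 called 13 higher and 13 lower, length offsets 13 and 11, length offsets plus block 12 lower, and an adjusted p of 0.05 gave 14 lower. With TGF-β1+BI6727 against vehicle, DESeq2 called 16 lower. The fit of only 2 groups called 25 higher and 26 lower, where 41.6% of all genes passed. Length offsets gave 15 lower, offsets plus block 14 lower, and an adjusted p of 0.05 gave 17 lower. DESeq2 called 1 pathway gene lower for BI6727 against DMSO, against 0.263% of all genes. With TGF-β1+DMSO, DESeq2 called 18.7% of all genes, against 9.82% in the edgeR fit of all 6 libraries. The share of all genes that passed thus differed between fits, and for some settings it is not given. The counts for members and lists are therefore no result about them.

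Leaving out 1 library at a time assumed that the lone sample of a group varied like the others. With TGF-β1+DMSO the members called lower then ranged from 0 to 2, and the pathway genes from 4 to 24 higher and 1 to 24 lower. With TGF-β1+BI6727 against vehicle the members lower ranged from 0 to 3, and the pathway genes from 4 to 25 higher and 2 to 27 lower. For BI6727 against DMSO the members ranged from 0 to 1 in each direction, and the pathway genes from 0 to 12 higher and 0 to 7 lower. The highest counts came without a TGF-β1+DMSO library. The spread then came only from the vehicle and TGF-β1+BI6727 pairs. These pairs were closer (SD over genes of the log2 difference 0.155 and 0.141) than the TGF-β1+DMSO pair (0.366). Adjusted p-values without a TGF-β1+DMSO library may therefore be too small. The share of all genes that passed moved as well, so these ranges are no result about the members or lists. Values near 0 for BI6727 against DMSO changed sign when a library was left out. Their log2 ranges were -0.052 to 0.0021 for Vegfa (0.0090 to 0.0095 with filterByExpr) and -0.13 to 0.10 for Vegfc (0.057 without BI6727 replicate 1). They were -0.62 to 0.27 for Pgf (0.15 without DMSO replicate 2) and -0.69 to 0.16 for Flt1. The ranges were -0.24 to 0.40 for Nrp1 (0.42 with filterByExpr) and -0.32 to 0.51 for Nrp2 (0.53 with filterByExpr). With length offsets, BI6727 against DMSO gave -0.0062 for Nrp1 and -0.027 for Nrp2 (-0.016 with the block, -0.015 with filterByExpr). Vegfc was 0.032 with length offsets and filterByExpr. Pgf with TGF-β1+BI6727 against vehicle ranged from -0.18 to 0.92 (-0.031 without vehicle replicate 1). With TGF-β1+DMSO against vehicle Pgf kept its sign, at 0.050 to 0.997. The cause was not tested.

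The deviations of same-numbered replicates correlated at -0.113, -0.261 and 0.0458 in the 3 comparisons. With 2 replicates a group, these values cannot settle whether same-numbered replicates shared a culture or batch. The replicate block gave 6 higher and 7 lower pathway genes with TGF-β1+DMSO, against 8 and 7 without it, and lost only the Vegfb call among members. With the DMSO numbers exchanged, a pairing added after seeing the data, the block gave 8 and 9. The fits of filterByExpr combined with other choices were also added after seeing the data. Pgf had 10 to 30 counts a library, and Kdr had 0 counts and could not be tested.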
